A study of Mus musculus with 6 samples.

Results

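The genes described here encode the initiation and elongation factors of cytosolic translation in mouse embryonic stem (ES) cells. They are the protein-coding genes whose GENCODE M21 symbol starts with Eif or Eef, and this rule takes 69 of the 55401 genes in the count table, of which 21897 are protein coding. The set holds subunits of each factor together with kinases, methyltransferases and binding proteins that carry the same prefix. Messenger RNA was sequenced from 3 libraries labelled KO, from ES cells grown with doxycycline for 7 days, and from 3 libraries labelled as 3XHA-Taf13 expressing cells, grown without doxycycline. Taf13 encodes a subunit of TFIID, the general factor that recognises RNA polymerase II promoters. Every library had its own Petri dish, and the labels give neither the strain, nor the age, nor the alleles of the line, nor whether it is 1 clone, nor how doxycycline acts on Taf13.

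Initiation factors bring the small ribosomal subunit, the initiator tRNA and the capped mRNA together. eIF2 carries the initiator tRNA and is recharged by eIF2B, eIF3 is a large scaffold on the small subunit, and the eIF4 proteins bind the cap and unwind the leader. Elongation then turns on eEF1A, which delivers aminoacyl-tRNA, its exchange complex eEF1B, and eEF2, which moves the ribosome by 1 codon. In ES cells global translation is known to be kept low relative to differentiated cells, and the mRNAs of many of these factors are known to share translational control through the mTOR pathway.

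The libraries labelled KO held 33953189 to 50328010 counts and the expressing libraries 31219328 to 45957003, so 3 counts equal 0.0581 to 0.0961 CPM, the unit used here for read counts scaled to library size. Taf13 itself had 12.1, 14.1 and 13.5 CPM in the libraries labelled KO, against 7.81, 10.1 and 12.2 CPM in the expressing libraries (log2 fold change 0.40, adjusted p = 0.0578, edgeR). It did not check the labels, and every direction given here rests on them. Doxycycline and the KO label go together in all 6 libraries and cannot be told apart. Expressing library 1 stood apart from the other two of its group. Its chi-square per degree of freedom was 33.9 against expressing library 2 and 27.5 against library 3, compared with 3.27 to 5.67 between libraries labelled KO. Its deviations from its group mean followed the GC content of genes, with r = 0.656 over genes that do not count as replicates. Those of expressing libraries 2 and 3 ran the other way, with r = -0.569 and -0.38. Deviations are taken from the mean of the 3 libraries of a group, so these values are tied to each other. In the libraries labelled KO, r was -0.143 to 0.121. Weighted by reads, the mean gene GC of expressing library 1 was 48.2%, and the other libraries had 47.28% to 47.54%. The 10 ES cell markers summed to 2835 to 2906 CPM in the libraries labelled KO and 3894 to 4088 CPM in the expressing libraries. At an adjusted p under 0.05 (edgeR) 9 of them fell, against 20.8% of all tested genes lower and 19.2% higher. Dppa4 and Utf1 kept that call in only 1 of the 6 fits that left out 1 library, and Sox2 in 4. All 10 primitive endoderm markers rose, with sums of 582.7 to 600.9 CPM in the libraries labelled KO and 129.7 to 162.2 CPM in the expressing libraries. Fibroblast markers (4 rose, 1 fell) summed to 106 to 197.7 CPM in the libraries labelled KO and 114.8 to 140.7 CPM in the expressing libraries, trophectoderm markers (2 rose, 5 fell) to 200.8 to 211.6 and 198.1 to 245.7 CPM, and neural markers (3 rose, 3 fell) to 308.4 to 332.7 and 331.5 to 387.1 CPM. Among the called markers of these 3 lists, Prrx1, Eomes and Krt18 kept their call in 2 of the 6 leave-out fits and Map2 in 1. No marker of any list was at 0 in all libraries. Their part in the changes of the translation factors was not tested. In bulk samples, fewer cells of a type and less RNA per cell cannot be told apart.

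Translation factor genes were mostly lower in the libraries labelled KO, by modest amounts. Of 67 tested genes, 36 fell (53.7%) and 4 rose (5.97%), against 20.8% of all 17778 tested genes lower and 19.2% higher (edgeR quasi-likelihood test, Benjamini-Hochberg adjusted p under 0.05). Their median log2 fold change was -0.22, against -0.01 for all tested genes, and 57 of the 67 lay below 0 (85.1%, against 51.2% of all). The libraries of the groups did not overlap, with KO lower, for 42 of them (62.7%, against 27.1% of all) and, with KO higher, for 6 (8.96%, against 26.4%). Most decreases were small: 9 genes fell by at least 0.5 on the log2 scale (13.4%, against 9.89% of all), and 1 rose by as much (1.49%, against 12.5%). Added over all 69 genes, the CPM came to 21603, 21120 and 21452 in the libraries labelled KO, against 26126, 25677 and 26115 in the expressing libraries, a ratio of 0.824. All 3 sums of the KO label lay below all 3 of the expressing cells. Scaled by library totals alone, the ratio was 0.876, 21 genes fell (31.3%) and 6 rose. Of all genes 14.5% then fell and 25.1% rose, with a median of 0.08 in place of -0.01. The count of decreases was 22 without KO library 3, 24 without KO library 2, 25 without KO library 1 or expressing library 3, 31 without expressing library 2 and 43 without expressing library 1. The shares of all genes that fell in those fits without 1 library were 14.5%, 14.7%, 15.1%, 14.7%, 20.1% and 24.7%. In the eIF2, eIF2B, eIF3, eEF1 and eEF2 groups, 0 genes rose by edgeR, also at an unadjusted p under 0.05 and by the DESeq2 Wald test.

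**Figure D1:**
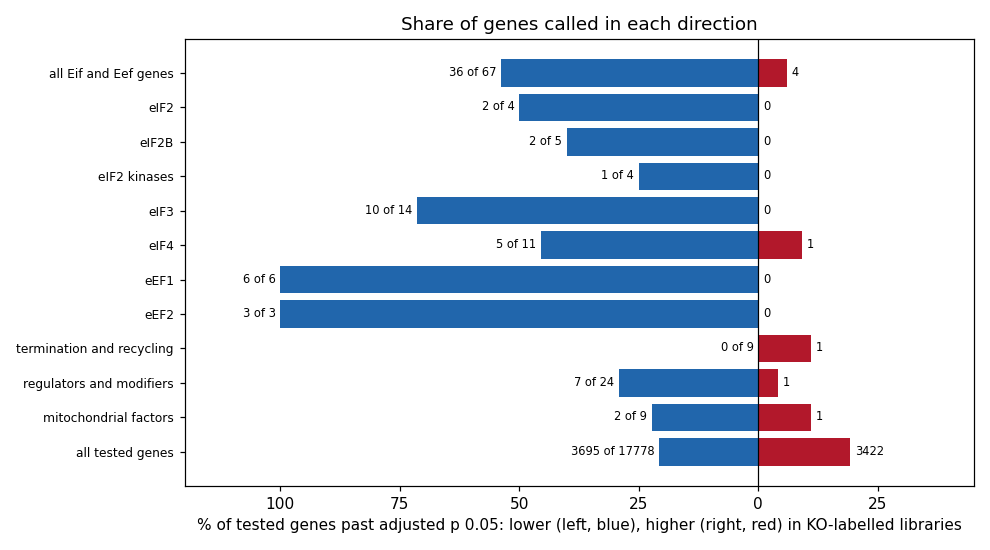
Share of tested genes past an adjusted p of 0.05 (edgeR), in percent, for all Eif and Eef genes, for the main complexes, for related gene lists and for all tested genes. Bars to the left count genes lower in the libraries labelled KO and bars to the right genes higher, with counts beside them: 36 of 67 Eif and Eef genes were lower, as were 6 of 6 eEF1 and 10 of 14 eIF3 genes.

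The set is drawn largely from abundant mRNAs, and abundant mRNAs as a class leaned lower. Among 2563 genes with a mean of at least 100 CPM, a limit set after the values were seen, 36.2% fell and 11.6% rose, with a median log2 fold change of -0.10. The 48 translation factor genes in that class had 29 decreases (60.4%), 1 increase and a median of -0.23. Below 100 CPM the decreases were 7 of 19 translation factor genes (36.8%), with 3 increases and a median of -0.13, against 18.2% lower, 20.5% higher and a median of 0.02 over 15215 genes.

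**Figure D2:**
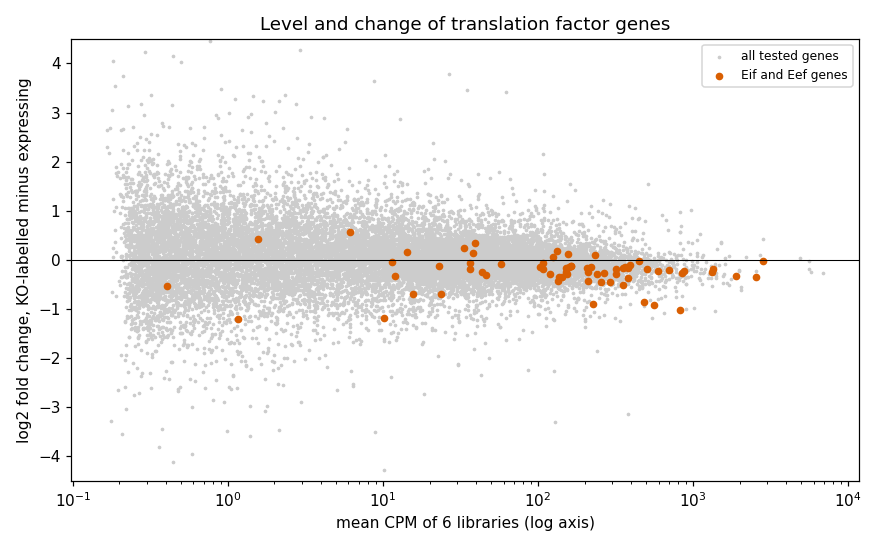
Log2 fold change of the libraries labelled KO over the expressing libraries (vertical axis) against the mean CPM of all 6 libraries (horizontal log axis) for each tested gene in grey and for 67 Eif and Eef genes in orange. Most orange points lie at 100 CPM or more and below 0, and 9 genes lie beyond the limit of 4.5 on the vertical axis.

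Promoter windows of 250 bases before to 50 after the start were available from RefSeq (GRCm38.p6) for 53 of the 69 genes, as 68 windows, and 16 genes had none. The E-box CACGTG, the core recognised by MYC and related factors, was present on either strand in 15 of the 68 windows (22.1%), against 7.15% of all 32851 windows and 7.84% of 21263 protein-coding ones. The ETS-type motif CCGGAAG, searched on both strands, was in 20 windows (29.4%), against 8.86% of all and 11.6% of protein-coding windows. The TATA motif TATAAA was in 5 windows (7.35%, against 13.6% of all), and the amino acid response motif TGATGCAA in none (against 0.895% of all). Of the 53 genes with a window 28 fell, while 20.8% of all tested genes were lower and 19.2% higher. The 13 genes with CACGTG had 8 decreases, 1 increase and a median log2 fold change of -0.26. The 40 tested genes with a window but without it had 20 decreases and a median of -0.18. With CCGGAAG the count was 8 decreases among 17 genes, and without it 20 among 36. Calls of other genes with these motifs were not counted, so none of these splits can be read as particular to a motif. A match describes letters only, and a RefSeq start need not be the one used in these cells. The 3 promoters below belong to genes among the decreases described next, and are shown for the position of the motif, in capitals, relative to the start; each runs from 250 bases before to 25 bases after it, in the direction of transcription. In Eef1b2 (chr1:63176581-63176855, + strand) CCGGAAG begins at base 2 after the start, in Eef2 (chr10:81176381-81176655, + strand) CACGTG begins at base -43, and in Eif4a1 (chr11:69672399-69672673, - strand) CACGTG begins at base -189.
Eef1b2: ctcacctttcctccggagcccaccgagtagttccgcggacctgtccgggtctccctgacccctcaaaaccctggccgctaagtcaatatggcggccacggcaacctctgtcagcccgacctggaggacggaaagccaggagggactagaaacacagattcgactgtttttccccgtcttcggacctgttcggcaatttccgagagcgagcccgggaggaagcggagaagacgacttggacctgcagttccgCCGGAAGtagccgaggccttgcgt
Eef2: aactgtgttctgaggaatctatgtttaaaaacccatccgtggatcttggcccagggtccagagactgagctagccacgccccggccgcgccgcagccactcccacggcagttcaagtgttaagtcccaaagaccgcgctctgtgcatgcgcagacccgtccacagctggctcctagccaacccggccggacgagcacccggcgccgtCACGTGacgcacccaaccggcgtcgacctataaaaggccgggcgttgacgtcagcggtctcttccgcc
Eif4a1: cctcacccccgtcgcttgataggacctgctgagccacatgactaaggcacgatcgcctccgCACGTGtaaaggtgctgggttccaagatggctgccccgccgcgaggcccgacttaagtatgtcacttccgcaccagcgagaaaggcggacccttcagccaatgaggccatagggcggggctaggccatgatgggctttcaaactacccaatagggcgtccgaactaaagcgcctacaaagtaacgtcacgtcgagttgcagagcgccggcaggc

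Among the ternary complex genes, that is the subunits of eIF2, the beta subunit fell most. Of 4 tested genes 2 fell (50%, against 20.8% of all genes) and none rose, with a median log2 fold change of -0.24. Eif2s2, the beta subunit (chromosome 2, 154871410 to 154892935), had 287, 282 and 307 CPM in the libraries labelled KO, against 358, 438 and 460.3 CPM in the expressing libraries. The groups did not overlap, with expressing library 1 nearest to the KO label (log2 fold change -0.52, SE 0.0897, adjusted p = 0.00161, edgeR). Eif2s1, the alpha subunit whose phosphorylation blocks recharging, had 349, 337 and 345 CPM in the libraries labelled KO, against 335, 403 and 402 CPM in the expressing libraries. Here expressing library 1 was the lowest of all 6 and the gene did not pass the test (-0.14, adjusted p = 0.154, edgeR), while it did without that library (9.58e-06).

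The gamma subunit has a copy on each sex chromosome in the mouse, and the Y copy dominated here. Eif2s3y had 166, 157 and 163 CPM in the libraries labelled KO, against 123, 159 and 169.5 CPM in the expressing libraries, and the groups overlapped (0.11, adjusted p = 0.437, edgeR). Eif2s3x had 10.7, 10.1 and 10.8 CPM in the libraries labelled KO, against 13.5, 12.3 and 14.0 CPM in the expressing libraries, which did not overlap (-0.33, SE 0.0893, adjusted p = 0.0165, edgeR). That call was lost without KO library 2, KO library 3 or expressing library 3, with adjusted p up to 0.0863, and with library totals. Per kilobase of exon, Eif2s3x made up 6.58%, 6.55% and 6.77% of the pair in the libraries labelled KO, against 10.8%, 7.78% and 8.26% in the expressing libraries. Of the 50-base words of Eif2s3x, 36.2% also occur in other annotated genes, so the split between copies is uncertain.

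The eIF2B complex, the exchange factor that recharges eIF2, changed little. Of its 5 subunit genes 2 fell (40%, against 20.8% of all genes) and none rose, with log2 fold changes of -0.25 to -0.06. Eif2b3, the gamma subunit, had 96.6, 103 and 105 CPM in the libraries labelled KO, against 112, 116 and 117 CPM in the expressing libraries (-0.18, SE 0.0588, adjusted p = 0.038, edgeR). Eif2b5, the catalytic epsilon subunit, had 212, 208 and 210.3 CPM in the libraries labelled KO, against 250.1, 218 and 225 CPM in the expressing libraries, without overlap and without passing the test (-0.14, adjusted p = 0.116). The calls of Eif2b3 and Eif2b4 were each lost on leaving out any KO library or expressing library 3, and also without expressing library 2 for Eif2b3 and without expressing library 1 for Eif2b4 (adjusted p up to 0.166 and 0.147). Both were lost as well with DESeq2 size factors, library totals, the DESeq2 Wald test and the replicate block. The Eif2b3 call was also lost without the low-count filter.

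The 4 kinases that phosphorylate eIF2 alpha lay between -0.19 and -0.06. Eif2ak4 (GCN2, the sensor of uncharged tRNA) had 35.3, 34.4 and 32.8 CPM in the libraries labelled KO, against 38.6, 39.5 and 38.4 CPM in the expressing libraries (-0.19, SE 0.065, adjusted p = 0.0459, edgeR). It was the only kinase called (25%, against 20.8% of all genes lower). Leaving out any library other than expressing library 1 ended the call (adjusted p up to 0.186), as did DESeq2 size factors, library totals, no filter, the DESeq2 Wald test and the replicate block. With the GC trend removed, Eif2ak1, Eif2ak2 and Eif2ak4 were called lower, so the count ran between 0 and 3 of 4. In that fit 27.7% of all genes were lower. Eif2ak1 (HRI, the heme-regulated kinase) had 93.0, 98.7 and 102 CPM in the libraries labelled KO, against 113, 108 and 105 CPM in the expressing libraries (-0.15, adjusted p = 0.0739, edgeR). Eif2ak3 (PERK, which senses endoplasmic reticulum stress) had 34.2, 35.9 and 36.6 CPM in the libraries labelled KO, against 37.2, 36.7 and 37.7 CPM in the expressing libraries (-0.06, adjusted p = 0.452, edgeR). Neither overlapped between the groups. Eif2ak2 (PKR, the sensor of double-stranded RNA) did overlap, with 21.4, 21.5 and 23.3 CPM in the libraries labelled KO, against 19.9, 25.3 and 27.3 CPM in the expressing libraries (-0.13, adjusted p = 0.392, edgeR). The mRNA of Atf4, the transcription factor whose translation is raised by eIF2 alpha phosphorylation, is given here with its result known beforehand: 41.9, 46.1 and 42.9 CPM in the libraries labelled KO, against 209.9, 202 and 219.8 CPM in the expressing libraries (log2 fold change -2.27).

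Both genes for tRNA-handling proteins outside the eIF2 complex were called, Eif2a lower and Eif2d higher. Of all genes, 40.0% were called in either direction. Eif2a, an alternative tRNA-binding factor and not the alpha subunit of eIF2, had 212, 215 and 219 CPM in the libraries labelled KO, against 264, 311 and 314 CPM in the expressing libraries. The groups did not overlap (-0.46, SE 0.0727, adjusted p = 0.000997, edgeR). Eif2d, which acts in recycling and reinitiation, had 144, 136 and 141 CPM in the libraries labelled KO, against 134, 119 and 118 CPM in the expressing libraries (0.19, SE 0.066, adjusted p = 0.0495, edgeR). The Eif2d call was lost on leaving out any library other than expressing library 1 (adjusted p up to 0.165), without the low-count filter and with the replicate block.

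Of the 7 genes grouped by name with the scanning and joining factors eIF1, eIF1A, eIF5 and eIF5B, 1 fell and 1 rose (14.3% each). Of all genes, 20.8% fell and 19.2% rose. Eif1ad is in this group by its name only. Eif1b, a paralogue of the scanning factor gene Eif1, had 42.5, 43.1 and 45.6 CPM in the libraries labelled KO, against 32.3, 36.3 and 34.6 CPM in the expressing libraries. All 3 KO values lay above all 3 expressing values (0.34, SE 0.0712, adjusted p = 0.00432, edgeR). Eif1 had 145, 142 and 145 CPM in the libraries labelled KO, against 165, 158 and 159 CPM in the expressing libraries (-0.16, SE 0.0527, adjusted p = 0.0395, edgeR), a call lost without any library other than expressing library 1 (adjusted p up to 0.152). It was also lost with DESeq2 size factors, library totals, no filter, the DESeq2 Wald test and the replicate block. Eif5, the GTPase activator of eIF2, just missed the threshold (-0.24, adjusted p = 0.0512, edgeR), and Eif1a, Eif1ax, Eif1ad and Eif5b had log2 fold changes of -0.16, -0.20, 0.05 and -0.03. In Eif5, Eif1a and Eif1ax expressing library 1 was the lowest of its group, and all 3 were called lower without it and with the GC trend removed. The group then had 4 decreases in either fit (57.1%, against 24.7% and 27.7% of all genes). It had 0 with DESeq2 size factors, library totals, the DESeq2 Wald test or the replicate block, where 14.5% to 19.7% of all genes fell. Without expressing library 1 the group also had 2 increases, Eif1b and Eif1ad (28.6%, against 26.2% of all genes).

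The eIF3 genes were lower almost as a block and by a narrow margin. Of 14 genes 10 fell (71.4%, against 20.8% of all genes) and none rose. The decreases spanned -0.37 to -0.18, with a median over all 14 of -0.23. Per kilobase of exon, Eif3c was the highest of them, at 230.2 ± 6.03 CPM in the libraries labelled KO and 269 ± 4.58 CPM in the expressing libraries (SD, n = 3 each). Eif3a, the largest core subunit (chromosome 19, 60761117 to 60790658), had 1219, 1187 and 1256 CPM in the libraries labelled KO, against 1446, 1424 and 1462 CPM in the expressing libraries (-0.24, SE 0.0492, adjusted p = 0.00387, edgeR). Eif3d, the subunit that can itself bind the cap, had 339.6, 332 and 325 CPM in the libraries labelled KO, against 471, 394 and 423 CPM in the expressing libraries (-0.37, SE 0.0699, adjusted p = 0.00262, edgeR). Neither gene overlapped between groups. Eif3b, Eif3c, Eif3e, Eif3f, Eif3h, Eif3k, Eif3l and Eif3m also fell, to 81.6% to 88.3% of the expressing mean, against 84.5% for Eif3a and 77.4% for Eif3d. Eif3g and Eif3i, which with Eif3b form the peripheral module, were at 91.1% and 89.4% and did not pass the test. Eif3j1 and Eif3j2, copies of the gene for the loosely bound j subunit, were at 137% and 111%, with log2 fold changes of 0.43 and 0.14 that did not pass. They share 54.8% and 91.9% of their 50-base words with other annotated genes, so their levels are uncertain. For Eif3d the share was 42.1%, so its level is uncertain too.

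The eIF3 decreases depended on the scaling and on single libraries. With library totals 4 of the 14 were lower (28.6%, against 14.5% of all genes). Without expressing library 3 the count was 6 (42.9%, against 14.7% of all genes). Without any 1 of the KO libraries it was 5 (35.7%, against 14.5% to 15.1% of all genes). Eif3a, Eif3d and Eif3h were lower under every alternative setting, whereas Eif3b, Eif3e, Eif3k, Eif3l and Eif3m each lost the call without any 1 of the KO libraries (adjusted p up to 0.081, 0.119, 0.112, 0.112 and 0.0623). Without expressing library 3 the last 4 lost it as well, and Eif3e also without expressing library 2.

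**Figure D3:**
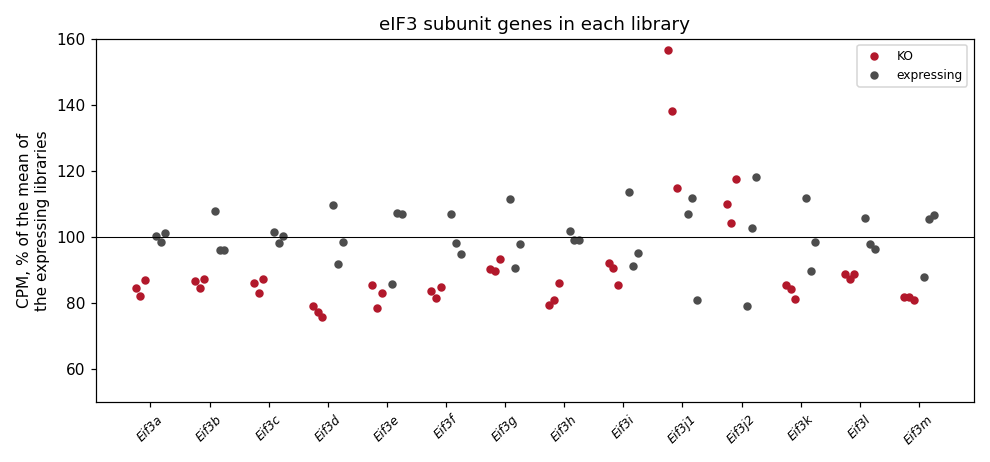
CPM of each eIF3 gene in each library, in percent of the mean of the expressing libraries (vertical axis, from 50), with libraries labelled KO in red on the left of each gene and expressing libraries in grey on the right. For 10 genes every red point lies below every grey point and their calls are lower, while Eif3j1 and Eif3j2 lie above 100 in all libraries labelled KO.

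Among the eIF4 genes, those for the helicase and its cofactor Eif4b fell to nearly the same degree, and the cap-binding and scaffold genes lay between -0.19 and 0.10 except for Eif4e3. Of 11 tested genes 5 fell (45.5%, against 20.8% of all genes) and 1 rose (9.09%, against 19.2%), with a median of -0.15. Eif4a1, an eIF4A helicase (chromosome 11, 69666936 to 69672423), had 165, 152 and 157 CPM in the libraries labelled KO, against 304, 294 and 285 CPM in the expressing libraries (-0.90, SE 0.0575, adjusted p = 6.21e-06, edgeR). Eif4a2, its paralogue (chromosome 16, 23107444 to 23114136), had 348, 345 and 340.2 CPM in the libraries labelled KO, against 546, 683 and 640.4 CPM in the expressing libraries (-0.85, SE 0.079, adjusted p = 4.88e-05, edgeR). In both genes the KO libraries lay far below the lowest expressing one. Eif4b, the RNA-binding stimulator of the helicase (chromosome 15, 102073773 to 102097173), had 389, 387 and 399 CPM in the libraries labelled KO, against 736, 724 and 752 CPM in the expressing libraries (-0.91, SE 0.0496, adjusted p = 2.92e-06, edgeR). The KO means were 53.6%, 55.3% and 53.1% of the expressing means for Eif4a1, Eif4a2 and Eif4b. Eif4h, a related helicase stimulator, had a log2 fold change of -0.11 and did not pass. Per kilobase, Eif4a1 was 36.1 ± 0.875% of the helicase pair in the libraries labelled KO and 36.9 ± 3.28% in the expressing libraries (SD, n = 3 each). Eif4a2 overlaps exons of Rfc4 on the other strand and of 6 genes on its own strand, and 33.3% of the 50-base words of Eif4a1 occur elsewhere, so part of their reads could be assigned otherwise.

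Eif4a3, an eIF4A paralogue that serves in the exon junction complex, had a log2 fold change of -0.35 (SE 0.0657, adjusted p = 0.00249, edgeR). Eif4e, the cap-binding protein, had 151, 152 and 152 CPM in the libraries labelled KO, against 136, 188 and 179.9 CPM in the expressing libraries, so the groups overlapped through expressing library 1 (-0.15, adjusted p = 0.292, edgeR). Eif4g1, the scaffold that joins Eif4e, the helicase and eIF3, had 1253, 1259.8 and 1265 CPM in the libraries labelled KO, against 1539, 1379 and 1398 CPM in the expressing libraries (-0.19, SE 0.0566, adjusted p = 0.023, edgeR). It was called lower, but not with library totals, with the replicate block, without any 1 of the KO libraries or without expressing library 3 (leave-out adjusted p up to 0.0897). Eif4g2, a scaffold that does not bind Eif4e and the most abundant eIF4 mRNA per kilobase, averaged 2780.4 ± 76.4 CPM in the libraries labelled KO and 2843 ± 234 CPM in the expressing libraries (SD, n = 3 each; -0.03, adjusted p = 0.726, edgeR). Eif4g3, the paralogue of Eif4g1, had a log2 fold change of 0.10 that did not pass. Eif4g1 made up 89.2%, 88.5% and 88.5% of the Eif4g1 and Eif4g3 pair per kilobase in the libraries labelled KO, against 91.0%, 90.5% and 90.2% in the expressing libraries, without overlap.

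Eif4e3, a divergent cap-binding paralogue, was the one gene of the whole set that rose by more than 0.5 on the log2 scale. It had 7.59, 7.36 and 7.07 CPM in the libraries labelled KO, against 4.48, 5.30 and 4.98 CPM in the expressing libraries (0.57, SE 0.106, adjusted p = 0.00242, edgeR). Every KO library lay above every expressing one, and the call held under every alternative setting. Eif4e2, which represses mRNAs by occupying their caps, had a log2 fold change of -0.12 and did not pass. Eif4e1b, a paralogue known from oocytes, was too low to test, with 1, 0 and 1 counts in the libraries labelled KO, against 2, 3 and 4 counts in the expressing libraries.

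Proteins that bind eIF4E had 2 decreases among 3 tested genes (66.7%, against 20.8% of all genes). Eif4ebp1, an mTOR-regulated repressor of cap-dependent translation, had 121, 111 and 112 CPM in the libraries labelled KO, against 179, 131 and 156 CPM in the expressing libraries (-0.44, SE 0.102, adjusted p = 0.00774, edgeR). Eif4ebp2, its paralogue, had 368, 353 and 360.4 CPM in the libraries labelled KO, against 427, 393 and 386 CPM in the expressing libraries, and narrowly missed the threshold (-0.16, adjusted p = 0.0516, edgeR). Both genes were without overlap between groups. Eif4enif1, the transporter that takes eIF4E to the nucleus and to P-bodies, had 139, 135 and 142 CPM in the libraries labelled KO, against 168, 161 and 163 CPM in the expressing libraries (-0.24, SE 0.0537, adjusted p = 0.00585, edgeR), a call lost with library totals. Eif4ebp3 failed the filter on low counts, with 6, 8 and 12 counts in the libraries labelled KO, against 8, 14 and 7 counts in the expressing libraries.

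Eif5a, the hypusine-carrying factor that helps the ribosome through difficult peptide bonds, fell together with Eif6, which keeps the large subunit from joining too early. Eif5a had 771, 758 and 766 CPM in the libraries labelled KO, against 963, 907 and 909.7 CPM in the expressing libraries (-0.28, SE 0.0504, adjusted p = 0.00218, edgeR). Eif6 had 133, 125 and 122 CPM in the libraries labelled KO, against 183, 145 and 155 CPM in the expressing libraries (-0.35, SE 0.0872, adjusted p = 0.0111, edgeR). Neither overlapped, and the Eif6 call was lost without KO library 3 (adjusted p = 0.0567) and with library totals. Eif5a2, the minor paralogue of Eif5a, had -0.30 and did not pass (adjusted p = 0.111).

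The elongation genes of the eEF1 group carried the largest combined decrease. All 6 tested genes fell (100%, against 20.8% of all genes), with a median of -0.44. Their CPM together came to 2749.8 ± 14.2 in the libraries labelled KO and 3932 ± 119 in the expressing libraries (SD, n = 3 each, ratio 0.699). Eef1b2, a nucleotide exchange subunit that recharges eEF1A (chromosome 1, 63176825 to 63180486), had 529.9, 558 and 541 CPM in the libraries labelled KO, against 1123, 1095 and 1097 CPM in the expressing libraries. The KO mean was 49.1% of the expressing mean, the groups were far apart, and the spread within each was small (-1.03, SE 0.0499, 95% interval -1.14 to -0.91, adjusted p = 1.7e-06, edgeR). Eef1b2 overlaps an exon of Ndufs1 on the other strand. Its partners in the exchange complex fell less: Eef1d had a log2 fold change of -0.44 (SE 0.0732, adjusted p = 0.00127, edgeR) and Eef1g, the structural subunit, -0.44 (SE 0.0599, adjusted p = 0.00042). The 95% intervals of both, like that of Eef1a1, lay above the interval of Eef1b2, although the difference between genes was not itself tested. Of the 50-base words of Eef1g, 64.3% also occur in other annotated genes, so its level is uncertain.

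Eef1a1, the carrier of aminoacyl-tRNA (chromosome 9, 78478449 to 78489151), had 1703, 1650.4 and 1665 CPM in the libraries labelled KO, against 2145, 2209 and 1994 CPM in the expressing libraries (-0.34, SE 0.0547, adjusted p = 0.00112, edgeR). Eef1a2, its paralogue of muscle and neurons, was barely present, at 0.659, 0.687 and 0.736 CPM in the libraries labelled KO, against 1.92, 1.25 and 1.70 CPM in the expressing libraries (-1.20, SE 0.219, adjusted p = 0.00222, edgeR). Neither gene overlapped between groups. Eef1a1 supplied 99.95% of the pair per kilobase in the libraries labelled KO and 99.91% in the expressing libraries. Since 60.6% of its 50-base words also occur in other annotated genes, its level is uncertain. Eef1e1, a component of the multi-synthetase complex that carries the eEF1 name, had 109, 104 and 109 CPM in the libraries labelled KO, against 111, 144 and 138 CPM in the expressing libraries. Expressing library 1 stood close to the KO values (-0.29, SE 0.0927, adjusted p = 0.0329, edgeR), and the call was lost on leaving out any library other than that one (adjusted p up to 0.117).

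All 3 eEF2 genes fell (100%, against 20.8% of all genes), the kinase most. Eef2, the translocase (chromosome 10, 81176631 to 81182498), was the most abundant of all 69 genes per kilobase, with 678 ± 18.2 CPM per kilobase in the libraries labelled KO and 866 ± 115 in the expressing libraries (SD, n = 3 each). Next came Eef1a1, at 671 ± 10.98 in the libraries labelled KO and 849 ± 44.3 in the expressing libraries. These neighbours do not differ beyond their spread. Of their 50-base words, 60.6% for Eef1a1 and 7.86% for Eef2 also occur in other annotated genes, so their order is uncertain. Unscaled for length, Eef2 had 2295, 2283 and 2185 CPM in the libraries labelled KO, against 3255, 2494 and 2889 CPM in the expressing libraries (-0.35, SE 0.0867, adjusted p = 0.0101, edgeR). The expressing libraries spread widely without reaching the KO values, and the call was lost without KO library 3 (adjusted p = 0.0508). Eef2k, the calcium-dependent kinase that inactivates eEF2 (chromosome 7, 120842831 to 120907450), had 6.33, 6.72 and 5.60 CPM in the libraries labelled KO, against 15.5, 13.0 and 13.7 CPM in the expressing libraries. Its KO mean was 44.2% of the expressing mean (-1.18, SE 0.11, adjusted p = 5.19e-05, edgeR). Eef2kmt, which methylates eEF2, had 12.5, 11.4 and 11.8 CPM in the libraries labelled KO, against 21.4, 16.95 and 19.6 CPM in the expressing libraries (-0.69, SE 0.101, adjusted p = 0.000621, edgeR).

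Of the 4 genes for eEF1A lysine methyltransferases, only Eef1akmt1 fell (25%, against 20.8% of all genes). It had 17.7, 18.6 and 17.5 CPM in the libraries labelled KO, against 29.5, 30.8 and 27.2 CPM in the expressing libraries, far apart in every library (-0.70, SE 0.0768, adjusted p = 0.000121, edgeR). Eef1akmt2, Eef1akmt3 and Eef1akmt4 had log2 fold changes of 0.16, -0.54 and -0.05, and Eef1akmt3, at under 1 CPM in each library, had an SE of 0.332. Eefsec, the elongation factor for selenocysteine, had 35.9, 35.6 and 36.4 CPM in the libraries labelled KO, against 33.9, 28.3 and 28.6 CPM in the expressing libraries (0.25, SE 0.0836, adjusted p = 0.0392, edgeR). All KO values lay above the expressing ones, yet the call was lost on leaving out any library other than expressing library 1 (adjusted p up to 0.141).

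**Figure D4:**
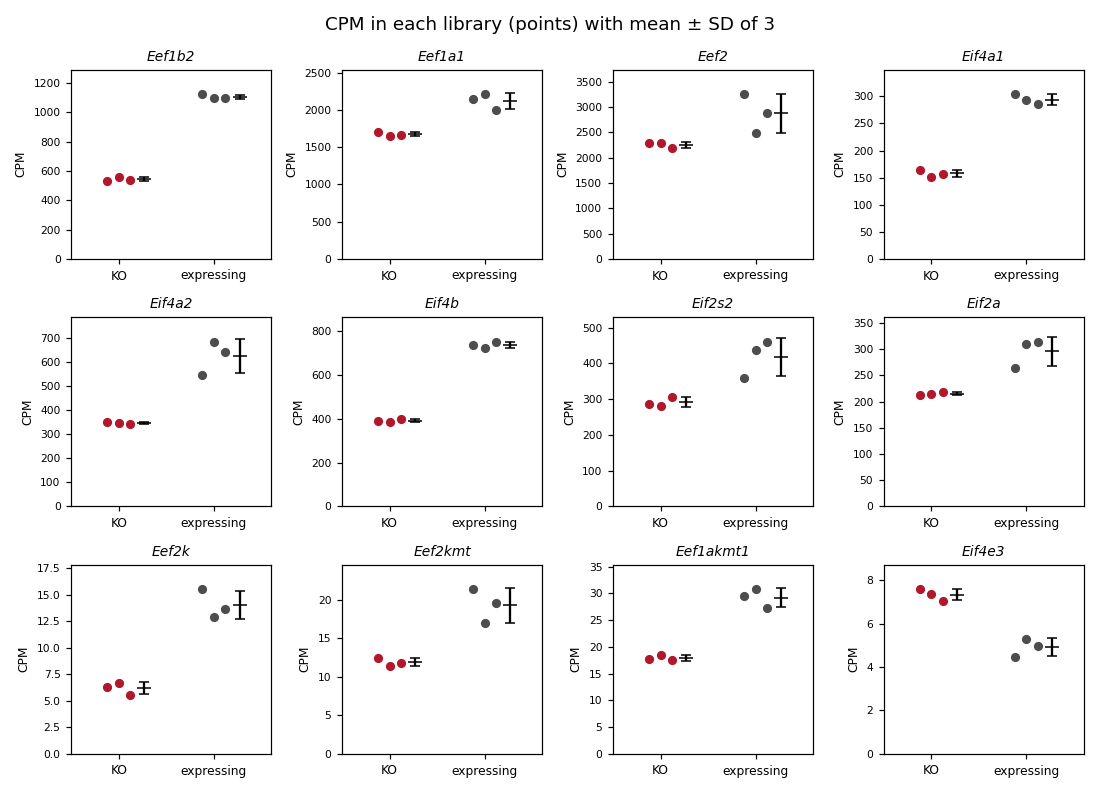
CPM in each library (points) with the mean ± SD of 3 libraries (bars) for 12 Eif and Eef genes, with libraries labelled KO in red on the left and expressing libraries in grey on the right of each panel, on axes that start at 0. In 11 panels all red points lie below all grey points, and in the panel of Eif4e3 all lie above.

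**Figure D5:**
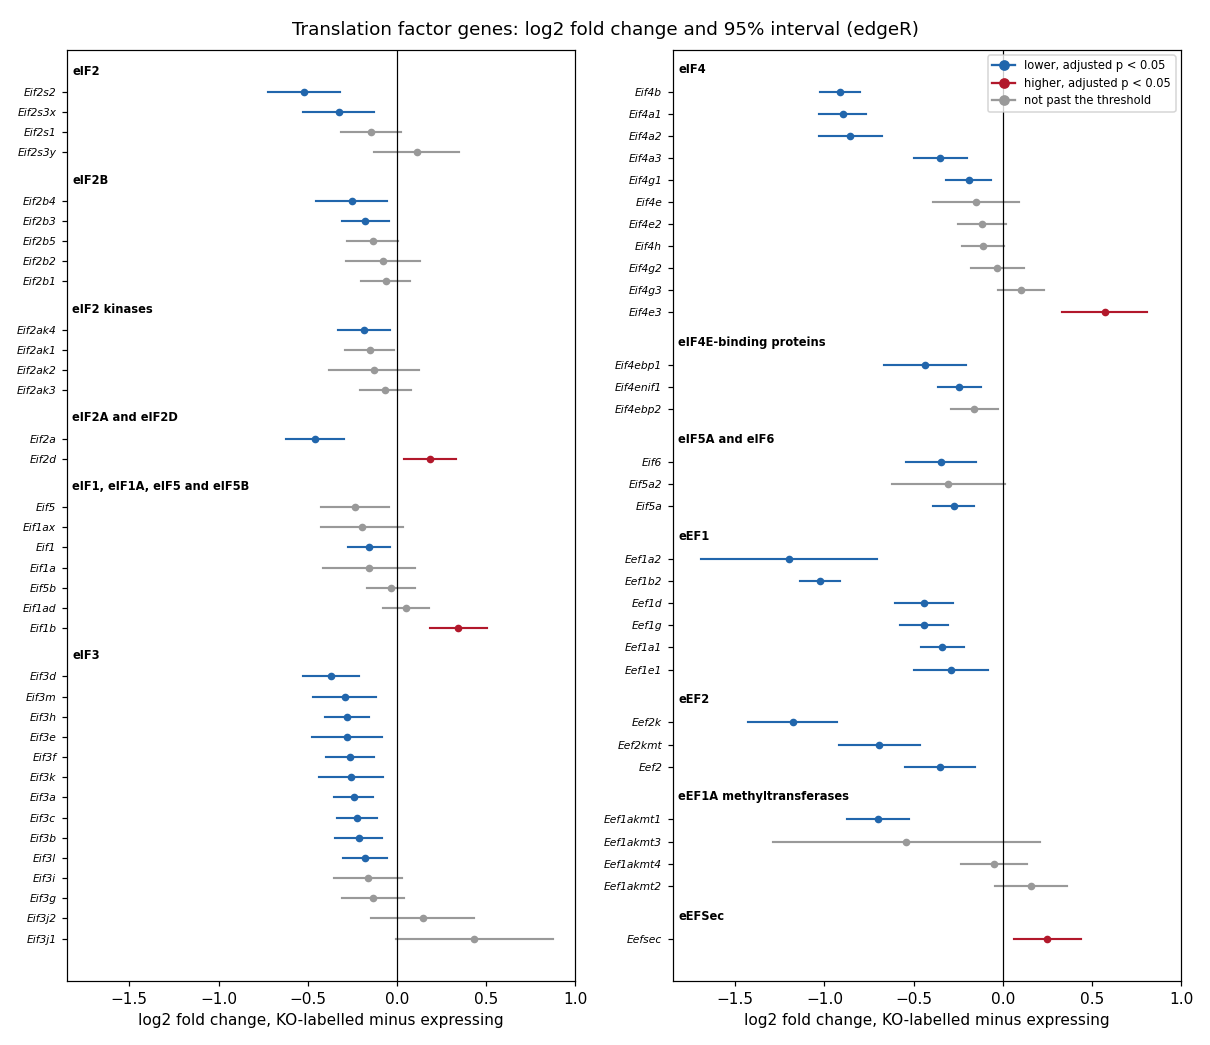
Log2 fold change of the libraries labelled KO over the expressing libraries with its 95% interval (edgeR) for 67 tested genes, grouped by complex and ordered by size within each. Blue marks the 36 genes that fell, red the 4 that rose and grey the 27 that did not pass an adjusted p of 0.05, and the points farthest to the left are Eef1a2, Eef2k and Eef1b2.

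Of the 36 decreases, 22 were called in each of the 6 fits that left out 1 library and 19 under every alternative setting as well. Those 19 were Eif2s2, Eif2a, Eif3a, Eif3d, Eif3h, Eif4a1, Eif4a2, Eif4a3, Eif4b, Eif4ebp1, Eif5a, Eef1a1, Eef1a2, Eef1b2, Eef1d, Eef1g, Eef2k, Eef2kmt and Eef1akmt1. Of the 4 increases, Eif1b and Eif4e3 were called in all of these fits. Matching shares over all called genes were not worked out, so these counts cannot be read as particular to this set. Without expressing library 1, calls were gained for 10 genes, namely Eif2s1, Eif2ak2, Eif1a, Eif1ax, Eif1ad, Eif5, Eif4e, Eif4g3, Eif4ebp2 and Eif5a2.

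Genes that act beside these factors were called lower at shares of 0% to 29.2% per list, against 20.8% of all genes lower and 19.2% higher. Of 24 regulators and modifiers 7 fell (29.2%) and 1 rose (4.17%), with a median of -0.15. Pabpc1, the main cytoplasmic poly(A)-binding protein, averaged 1399 ± 52.7 CPM in the libraries labelled KO and 1990.2 ± 49.6 CPM in the expressing libraries (SD, n = 3 each; -0.51, adjusted p = 8.3e-05, edgeR), and its paralogue Pabpc4 had -0.68 (adjusted p = 7.19e-05). The genes for both targeting subunits of the eIF2 alpha phosphatase were called in opposite directions. Ppp1r15b, the constitutive subunit, had 153, 153 and 159 CPM in the libraries labelled KO, against 212, 244 and 253 CPM in the expressing libraries (-0.61, adjusted p = 0.000192, edgeR). Ppp1r15a, the stress-induced subunit, had 51.7, 47.9 and 48.0 CPM in the libraries labelled KO, against 44.5, 37.8 and 37.1 CPM in the expressing libraries (0.31, adjusted p = 0.0162, edgeR), a call lost without KO library 1 or expressing library 3 (adjusted p up to 0.0746). Paip2b, an inhibitor of poly(A)-binding protein (-0.51), Tpt1 (-0.91), Dohh, which completes hypusine on eIF5A (-0.59), and Gigyf2, a partner of the cap repressor Eif4e2 (-0.36), also fell, of which Dohh was not called without KO library 2 or 3 (adjusted p up to 0.118) or with library totals. Tpt1 averaged 13.7 CPM in the libraries labelled KO and 25.7 CPM in the expressing libraries (adjusted p = 0.00041, edgeR). Sequence shared with other genes was worked out for Eif and Eef genes only. Among 9 termination, recycling and reinitiation factors 0 fell by edgeR (2 at an unadjusted p under 0.05, 0 by the DESeq2 Wald test). Without expressing library 1, 4 of them fell (44.4%, against 24.7% of all genes). With the GC trend removed 4 also fell (44.4%, against 27.7%). In the reported fit 1 of the 9 rose (11.1%), namely Mcts1 (0.48, adjusted p = 0.0274, edgeR), with expressing library 1 lowest at 39.2 CPM. The Mcts1 call was lost without any 1 of the KO libraries or expressing library 2 (adjusted p up to 0.0924). Among 9 mitochondrial factors Mrrf, for ribosome recycling (-0.55), and Gfm2 (-0.35) fell, and Gfm1, a mitochondrial elongation factor, rose (0.17, adjusted p = 0.0379, edgeR). The Gfm1 call was lost without any library other than expressing library 1 (adjusted p up to 0.173).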

How the data were processed

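Poly(A) RNA was sequenced from 6 dishes of mouse ES cells. Per the labels' protocols, 800 ng of total RNA went into a stranded kit that marks strand with dUTP, with 12 PCR cycles. The deposited table holds raw read counts per gene, made by the authors, for 55401 genes in 6 columns. The submitters' processing notes name the build mm10 and the tools STAR 2.5.3a, HTSeq 0.6.1p1, cutadapt 1.10 and bcl2fastq 2.20.0.422. How they were set, whether counting used strand, and which annotation served are not stated in these notes. A shift of all mRNA per cell would not show in values scaled to library size. PCR copies were not marked, so counts of reads are not counts of molecules.

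GENCODE M21 named 55141 identifiers and gave positions. Genes were kept by filterByExpr (10 counts, 15 in total), scaled by TMM and tested by edgeR 4.0.16 (R 4.3.3) with the quasi-likelihood test across 17778 genes, Benjamini-Hochberg adjusted, at 0.05. The code was tested on simulated data. The biological coefficient of variation was 9.05%. CPM are TMM-scaled; CPM per kilobase divides by exon length. Alternatives were DESeq2 size factors, library totals, other filters, the DESeq2 1.42.0 Wald test, a replicate block, removal of the GC trend, and leaving out each library. Deviations of same-numbered libraries correlated at 0.0346, -0.0677 and 0.0817, and those of other pairs at -0.139 to 0.12. The labels state no pairing, and with so few libraries these values cannot exclude one. P-values measure the spread between dishes, which may share a starting culture.

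Values in every library are given for Eif and Eef genes past the threshold with an absolute log2 fold change of at least 0.5, for the smallest p in each role and direction, and for a list of main factors whatever their result. Of the related lists, genes past the threshold are named with their log2 fold change, a few of them with CPM. The members and lists were chosen with earlier results of these data known. Exons of 20 members overlap a gene on the opposite strand and those of 14 a gene on the same strand. In 12 members at least 25% of the 50-base words also occur in another annotated gene. They are Eif2s3x, Eif1, Eif3d, Eif3h, Eif3j1, Eif3j2, Eif4a1, Eif4ebp3, Eef1a1, Eef1g, Eef2kmt and Eef1akmt4.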

Additional observations from a re-analysis of the deposited data

How the results depend on the processing

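No called direction reversed under any alternative run. With library totals, 21 members fell and the summed ratio of KO over expressing was 0.876. The same scaling left 1 lower eIF2 gene (25%), 0 eIF2B and 4 eIF3 (28.6%), against 14.5% of all genes lower. Higher were 2 eIF4 genes (18.2%), 2 termination factors (22.2%), 2 regulators (8.33%) and 3 mitochondrial factors (33.3%), against 25.1% of all genes. DESeq2 size factors and the DESeq2 Wald test each gave 0 lower eIF2B genes, 2 higher termination factors (22.2%) and 2 higher regulators (8.33%). The shares of all genes in those fits were 19.7% and 19.3% lower, and 20.2% and 19.4% higher. Without a filter, 1 eIF2B gene (20%) and 1 termination factor (11.1%) fell, against 11.7% of all genes. In that fit 2 regulators (8.33%) and 0 mitochondrial factors rose, against 11.4% of all genes. With 1 CPM in 3 libraries 2 termination factors rose (22.2%, against 21.5% of all genes). With the GC trend removed, alone or with the replicate block, 48 members fell and 5 rose, while 27.7% of all genes fell and 25.1% rose (27.3% and 24.8% with the block), against 20.8% and 19.2% in the reported fit. Both gave 8 lower and 2 higher eIF4 genes, 4 lower and 2 higher termination factors, 11 lower and 3 higher regulators and 4 lower mitochondrial factors, and with the block 2 higher mitochondrial factors. The lower count was 3 of 3 for the eIF4E-binding genes and 3 of 3 for eIF5A and eIF6 with the GC trend removed, and 1 of each with library totals. The causes were not tested.

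With the replicate block alone, 30 members fell and 3 rose, while 19.1% of all genes fell and 18.2% rose; 0 eIF2B genes fell and 0 mitochondrial factors rose. Whether replicate numbers pair the dishes is not stated.

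Leaving out 1 library at a time, 22 to 43 members fell and 2 to 6 rose, against 2628 to 4589 and 2541 to 4852 of all genes. Lower counts were 1 to 3 for eIF2, 0 to 1 for eIF2B, 5 to 10 for eIF3, 4 to 6 for eIF4, 5 to 6 for eEF1, 2 to 3 for eEF2, 0 to 4 for termination factors, 6 to 9 for regulators and 2 for mitochondrial factors. Higher counts were 1 to 2 for eIF4, 0 to 2 for termination factors, 0 to 3 for regulators, 0 to 3 for mitochondrial factors and 0 for the other complexes. Eif4e1b, with 0 to 4 counts a library, is below what this depth can compare.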
